A study of Mus musculus with 8 samples.

Results

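Of the 22791 FAIRE peaks listed in mouse granulosa cells 4 h after the ovulatory signal, 8927 were also present before it and held no LRH-1 peak at either time. These 8927 regions are the open chromatin that persisted across the signal without detected LRH-1 (NR5A2). They were chosen by peak presence, as peaks of the FAIRE list after human chorionic gonadotropin (hCG) that shared at least 1 bp with a peak of the list before hCG and no base with a LRH-1 peak of either time. Presence in the FAIRE and LRH-1 lists therefore made the choice, and every value of these lists given here is a description without a test. The study took C57BL/6 mice of genotype LRH-1 +/+, aged 22 to 25 days, that had received 5 IU of equine chorionic gonadotropin (eCG) to drive follicle growth. Material was taken at 0 h or 4 h after 5 IU of hCG, which was given 44 h after eCG and stands in for the luteinising hormone surge. FAIRE was done on granulosa cells released by puncturing the ovary, while the LRH-1 chromatin immunoprecipitation (ChIP) started from ovarian tissue of 5 animals per condition, so its peaks can come from other ovarian cells too. Each label states 2 replicates and each assay has 1 peak list per time, so no value has a replicate error. All positions are in mouse build mm9, with starts counted from 1.

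FAIRE (formaldehyde-assisted isolation of regulatory elements) recovers DNA that carries few nucleosomes, such as active promoters, enhancers and insulators. In many tissues the chromatin open across conditions is rich in promoters of widely used genes and in insulators, while enhancers tend to open and close with a stimulus. LRH-1 is a nuclear receptor of the NR5A family that binds DNA as a monomer and is needed in granulosa cells for ovulation. Granulosa cells respond to the luteinising hormone surge within hours by changing from oestrogen production and growth to luteinisation.

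The members made up 39.2% of the FAIRE peaks after hCG (exact Clopper-Pearson 95% interval 38.5 to 39.8) and 77.4% of the 11535 peaks found at both times. FAIRE peaks without LRH-1 were found at both times less often than those with it, at 48.0% against 62.3% of the peaks after hCG. Seen from the list before hCG, the shares were 52.3% of 16984 peaks without LRH-1 and 59.1% of 4447 peaks with it. The gap depended on the score. In 10 equal groups of the list after hCG by score, peaks without LRH-1 were at both times less often in the lowest 8 groups, for example 30.0% against 50.4% in the lowest. In the group next to the best both shares were 65.2%, and in the best-scoring group it was 82.6% without LRH-1 and 75.7% with it. Both overall gaps compare lists and not conditions, and no test of the difference was made. They rest on the FAIRE and LRH-1 presence that chose the members. Peaks of both times with LRH-1 were also wider in the list after hCG, with a median of 968 bp against 901 bp in the members. The part of width in the gaps was not tested. Intervals here and below cover counting error only, and the read depth behind the lists is unknown.

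The absence of LRH-1 means the absence of a listed peak. For 70 members (0.784%) the partner peak before hCG reached a LRH-1 peak although the peak after hCG did not. The edges of the rule show how close such cases came. The member closest to LRH-1, on chromosome 8 at 113557216 to 113558191, lay 1 bp from such a peak and had scores of 166 before and 113 after hCG. Just outside the rule, the peak on chromosome 11 at 109472490 to 109473687 shared 6 bp with LRH-1, with scores of 479 and 447. In all, 49 members lay within 100 bp of a LRH-1 peak, and 54 peaks with LRH-1 shared no more than 100 bp with it. The overlap between times was rarely marginal. The smallest was 1 bp, on chromosome 1 at 194710944 to 194711919 (scores 44.0 before and 90.8 after hCG), and 17 members (0.190%) shared 100 bp or less. Just outside, the peak on chromosome 4 at 119088739 to 119089420 missed its neighbour before hCG by 5 bp, with scores of 90.04 and 80.97.

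Within these limits, paired peaks lay close together and had similar median widths, while the widths of single regions varied. Only overlapping peaks were paired, which limits how far their places could differ. Of the members, 8829 (98.9%) paired 1 to 1, 25 had several partners before hCG and 73 shared their partner with another peak after hCG. Midpoints of paired peaks lay a median of 57.5 bp apart (quartiles 25 and 108.5 bp), and the peak before hCG covered a median of 95.5% of the peak after it. Over all FAIRE pairs these medians were 59.5 bp and 95.3%. The median width was 932 bp before hCG (quartiles 816 and 1030 bp) and 901 bp after it (quartiles 776 and 1007 bp). The median difference was -30 bp (quartiles -150 and 86 bp). After hCG 5147 members were narrower (57.7%, beside 57.4% of all FAIRE pairs), 3761 wider and 19 of the same width. Widths before and after hCG had a Spearman's rho of 0.44 in the members and 0.45 over all pairs. The same median difference of -30 bp held over all 11535 pairs, of which the members are the larger part, and the whole lists had medians of 918 and 897 bp. The 942 peaks of both times that held only LRH-1 peaks gained after hCG differed from this, with a median difference of 11 bp, 491 wider and 447 narrower. Peaks of both times with other LRH-1 differed in the opposite direction. The median difference was -53 bp in 1363 peaks with only persistent LRH-1 and -89 bp in 274 with only lost LRH-1.

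A few members were far wider than the rest. The widest after hCG, on chromosome 16 at 3251799 to 3256931, spanned 5133 bp after and 3958 bp before hCG, yet its scores of 57.4 before and 43.4 after were close to the lower limit of the lists. The next, on chromosome 4 at 145036378 to 145040643, spanned 4266 and 4601 bp, with scores of 153 before and 149 after hCG. The largest loss of width was on chromosome 12 at 116850546 to 116854164, from 6542 to 3619 bp, while its score went from 152 to 141. These 3 regions were therefore broad at both times. By contrast, the region on chromosome 13 at 23611063 to 23611862 was 3493 bp wide before and 800 bp wide after hCG, and its score went from 135 to 42.5. The largest gains of width were on chromosome 17 at 17761294 to 17764111 (961 to 2818 bp, score 41.1 to 78.8) and on chromosome 1 at 95238109 to 95240661 (853 to 2553 bp, score 105 to 190). Both of these peaks after hCG joined 2 separate peaks before it, and width and score here refer to the partner with the longest overlap. With the better-scoring partner, the centred log2 ratio of scores (defined below) of the region on chromosome 17 went from 1.10 to 0.12 and that of the region on chromosome 1 from 1.02 to 0.48, so that neither was 2-fold higher any more.

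The score in the FAIRE lists is the authors' value for each peak, on an unstated scale. A ratio of scores is therefore not known to be a ratio of chromatin opening. No listed score is below 40, so a region weaker than that at one time would not be a member. Members had a median score of 91.3 before hCG (quartiles 60.9 and 153) and 83.2 after it (quartiles 56.6 and 139.6). They ranked above FAIRE peaks of a single time without LRH-1, which had medians of 55.2 (8093 peaks before hCG only) and 59.3 (9681 peaks after hCG only). FAIRE peaks of both times with LRH-1 had higher medians still, at 104 before and 95.6 after hCG.

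The share of members rose with every step in score of the list after hCG. With the list split into 10 equal groups by score, they made up 27.0% of the lowest-scoring group (95% interval 25.2 to 28.8) and 46.6% of the group next to the best (44.5 to 48.6). In the best-scoring group, with scores of 186 and above, they were 62.0% (60.02 to 64.04). Among peaks without LRH-1 alone, the share present at both times ran from 30.0% in the lowest group to 82.6% in the highest. Among peaks with LRH-1 it ran from 50.4% to 75.7%. A member must be listed at both times with a score of at least 40, which favours strong peaks. The rise is therefore a description and not a test. Peaks of both times with LRH-1 made up 5.09% of the lowest group and 18.9% of the highest. At the top of the list the members thus outnumbered every other class, as the plot of peak classes by score shows. The best-scoring 10% of the list after hCG held 1414 members and 298 peaks seen only then without LRH-1. The best-scoring 10% of the list before hCG held 24 peaks seen only then without LRH-1.

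**Figure D1:**
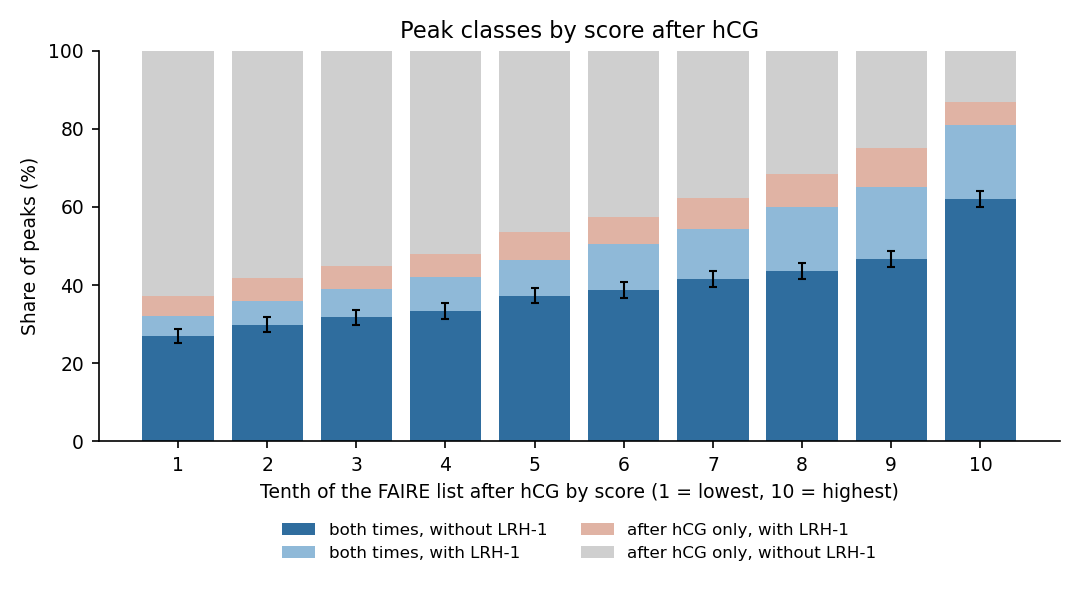
Share of each class of FAIRE peaks (vertical axis, %) in 10 equal groups of the list after hCG ordered by score (horizontal axis); black bars are exact 95% intervals of the share of peaks of both times without LRH-1. That share is 27.0% in the lowest group and 62.0% in the highest.

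The strongest members were among the strongest FAIRE peaks of both lists. The best-scoring peak of each list was a member, on chromosome 5. It spanned 60433426 to 60434848 with a score of 2339 before hCG, and 60433534 to 60434486 with a score of 1485 after the signal. Its nearest LRH-1 peak was 2143 kb away. On chromosome 17, the member at 57170837 to 57172045 had a score of 1203 before and 972 after hCG. On chromosome 7, the member at 134352060 to 134353096 scored 1054 and 973. These 3 held high places at both times, with LRH-1 peaks 14.1 kb away on chromosome 17 and 12.3 kb away on chromosome 7. The remaining leaders after hCG were on chromosome 8, at 4165746 to 4166606 (855 before and 1042 after) and at 97604351 to 97605570 (1008 and 935). Those before hCG were on chromosome 7 at 26051954 to 26053815 (1136 and 873) and on chromosome 19 at 12039208 to 12040371 (1115 and 877). Of these 7 leaders, the member at 4165746 to 4166606 on chromosome 8 had the higher score after hCG and the other 6 the higher score before it. Relative to the median ratio of all pairs, those on chromosome 7 at 134352060 (centred log2 ratio 0.05) and on chromosome 8 at 97604351 (0.06) were also above it, which makes 3 above and 4 below.

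Scores before and after hCG moved together across the members, with a Spearman's rho of 0.61 over 8927 pairs. The pairs share the same caller and the same kind of library, and regions are not replicates. The median ratio of scores, after over before, was 0.889 in the members and 0.892 over all 11535 FAIRE pairs. As the scale between the lists is unknown, ratios were centred on the median of all pairs, a shift of -0.16 on the log2 scale. Centred in this way, the middle 90% of members lay between 0.486-fold and 2.38-fold. At least 2-fold higher scores after hCG were seen at 752 members (8.42%, 95% interval 7.86 to 9.02), beside 9.77% of all pairs. At least 2-fold lower scores were seen at 494 members (5.53%, 95% interval 5.07 to 6.03), beside 6.85% of all pairs. The balance between directions depended on the centring. Without it, 539 members were higher and 771 lower, beside 7.15% and 10.2% of all pairs, so that 41.1% of the changed members were higher instead of 60.4%. Presence at both times therefore did not mean an equal score. Differences of at least 2-fold in either direction were seen at 14.0% of the members, beside 16.6% of all pairs.

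**Figure D2:**
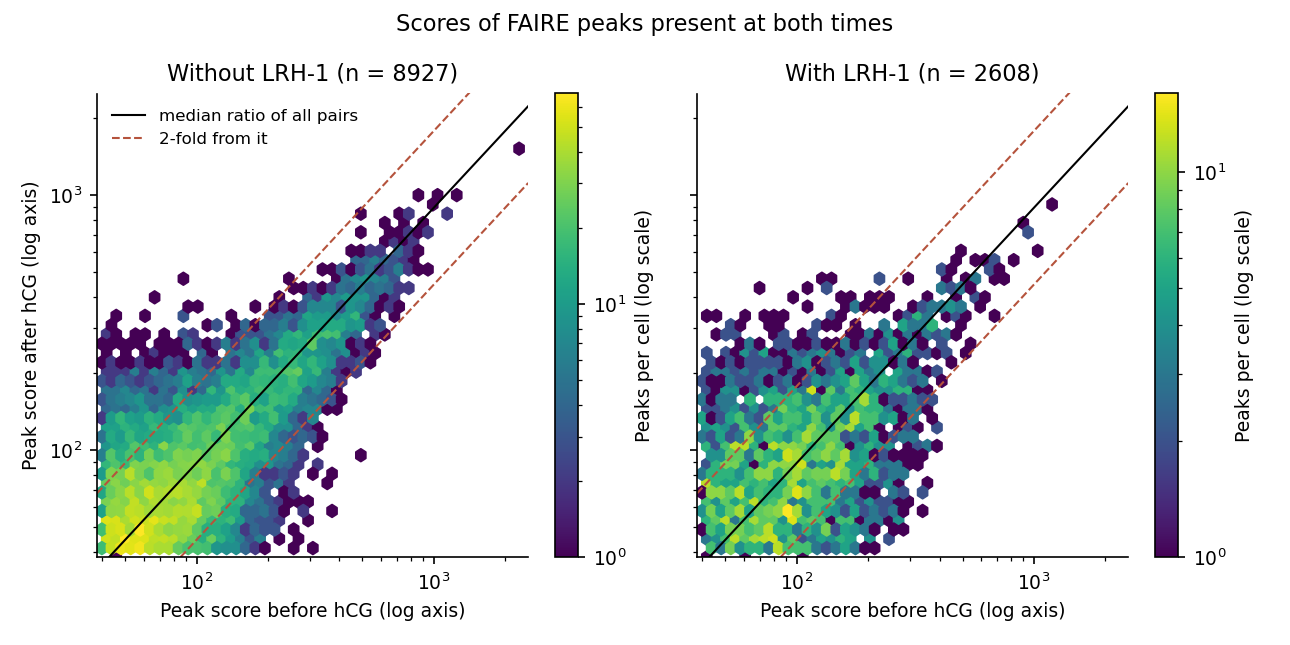
Score of each FAIRE peak of both times before hCG (horizontal, log axis) against its score after hCG (vertical, log axis), for peaks without LRH-1 (left, 8927) and with LRH-1 (right, 2608); colour is the number of peaks per cell on a log scale. The solid line is the median ratio of all pairs and dashed lines lie 2-fold from it. The left cloud lies closer to the solid line (SD of the centred log2 ratio 0.69) than the right one (0.90). Spearman's rho was 0.61 on the left and 0.37 on the right.

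Ranks need no centring, since both times were ranked over the same 11409 pairs that match 1 to 1. By rank, 1295 members (14.7%) stood 25 percentile points or more higher after hCG and 1311 (14.8%) lower, beside 16.0% and 16.0% of all 1 to 1 pairs, so the excess of higher members seen in the centred ratios was not seen in the ranks. Of the members in the best 20% before hCG, 72.0% (1245 of 1729) were in the best 20% after it, beside 66.7% of all 1 to 1 pairs. Of the members in the worst 20% before hCG, 39.1% (729 of 1866) were in the worst 20% after it, beside 36.0% of all pairs. Members of the middle 20% kept that place in 25.9% of cases (453 of 1748), beside 26.0% of all pairs, and their median percentile after hCG was 40.7. The top of the range was thus held more often than the middle or the bottom, as it was over all 1 to 1 pairs. A middle place can be left upwards or downwards, so this order is a description only.

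Among 1 to 1 pairs, the largest increases were found at regions close to the lower limit before hCG. The member on chromosome 8 at 37247046 to 37247797 went from a score of 44.8 to 341, a centred ratio of 8.55-fold. On chromosome 1 at 79186347 to 79188425 the score went from 44.4 to 301 (7.58-fold) and the width from 972 to 2079 bp, and a LRH-1 peak lay 0.554 kb away. On chromosome 17 at 35727124 to 35728198 it went from 42.8 to 283 (7.42-fold). The next were on chromosome 16 at 24933469 to 24934747 (43.5 to 285, 7.35-fold) and on chromosome 6 at 65422227 to 65423255 (45.4 to 289, 7.15-fold). All 5 lay within the lowest 13.3% of the list before hCG and at percentile 96.5 or higher of the list after it. Their membership thus rested on peaks just above the lower limit of 40 before hCG.

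The largest decreases among 1 to 1 pairs started high and ended over a wider range of the list. A further 3 members that did not pair 1 to 1 had larger decreases, down to a centred log2 ratio of -2.78. On chromosome 2 at 112360474 to 112361225 the score went from 263 to 45.7, a centred ratio of 5.12-fold lower, and the width from 1139 to 752 bp. On chromosome 1 at 139025854 to 139026724 it went from 295 to 52.2 (5.05-fold lower) and the width from 1726 to 871 bp. On chromosome 2 at 163058902 to 163060122 it went from 499 to 91.8 (4.85-fold lower), with a LRH-1 peak 8.19 kb away. This last region had been at percentile 99.1 of the list before hCG and stood at percentile 65.0 after it. The other 2 were on chromosome 6 at 48592603 to 48593489 (266 to 50.4, 4.71-fold lower), 0.305 kb from a LRH-1 peak, and on chromosome 1 at 36976565 to 36977524 (287 to 55.8, 4.58-fold lower). After hCG the 5 stood between percentiles 13.8 and 65.0 of the list. All 5 were also narrower after hCG, with width differences from -1021 to -117 bp.

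At the other end, 1057 members that paired 1 to 1 were in the best-scoring 10% of both lists. The 3 among them with a centred ratio closest to 1 lay on chromosome 2 at 91104742 to 91105853 (389 before and 347 after hCG) and on chromosome 11. There the scores were 341 and 304 at 115626143 to 115627144, and 344 and 307 at 3996149 to 3997292. The region on chromosome 2 had a LRH-1 peak 3.00 kb away, and the last one had a FAIRE peak of a single time 0.283 kb away.

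Compared with FAIRE peaks of both times that held LRH-1, the members had more similar scores before and after hCG. Spearman's rho was 0.61 in 8927 members and 0.37 in 2608 peaks with LRH-1, and the SD of the centred log2 ratio over regions was 0.69 and 0.90. At least 2-fold changes in either direction were seen at 14.0% of members (95% interval 13.2 to 14.7) and at 25.7% of peaks with LRH-1 (24.1 to 27.5). Over all pairs the share was 16.6%. Of the peaks with LRH-1 in the best 20% before hCG, 50.2% were in the best 20% after it, beside the 72.0% of members given above. As LRH-1 overlap chose the members and regions are not replicates, this difference was not tested.

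The kind of LRH-1 peak went with the direction of the score, and the members lay between the extremes. Where the only LRH-1 peaks were gained after hCG (942 FAIRE peaks), 20.9% had an at least 2-fold higher score and 4.56% a lower one. Where they were lost after hCG (274 peaks), 4.38% had a higher score and 21.2% a lower one. Where they were present at both times (1363 peaks), 11.9% were higher and 13.8% lower. The members, at 8.42% and 5.53%, had a smaller share changed in total than any of these 3 kinds in these lists, whose either-way shares were 25.5%, 25.5% and 25.7%. The bars of the plot of shares past a 2-fold ratio show the exact intervals.

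**Figure D3:**
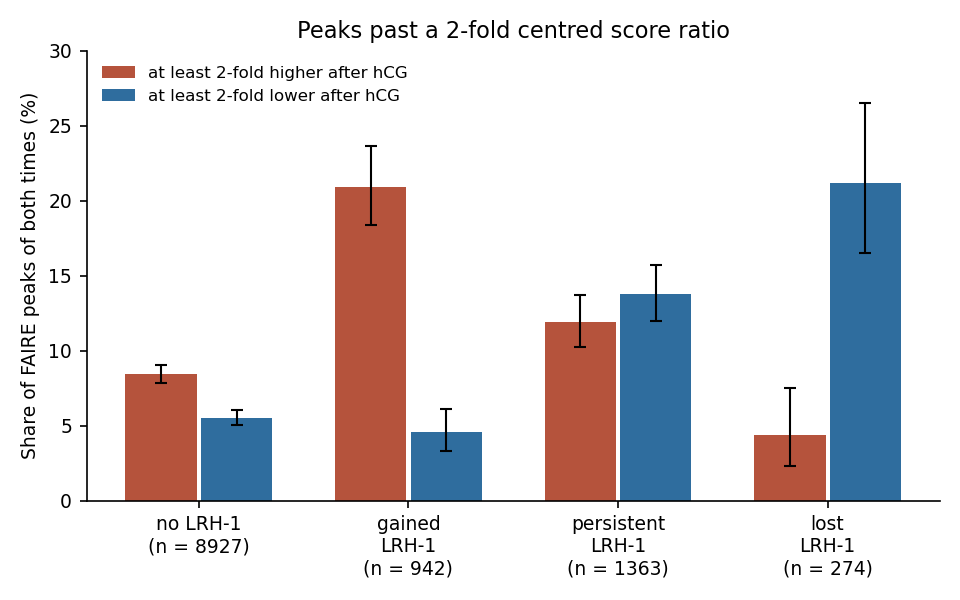
Share of FAIRE peaks of both times (vertical axis, %) whose centred score ratio was at least 2-fold higher (red) or lower (blue) after hCG, by the LRH-1 peaks they held; black bars are exact 95% intervals that cover counting error only. Peaks without LRH-1 stand at 8.42% and 5.53%, those with gained LRH-1 at 20.9% and 4.56%, and those with lost LRH-1 at 4.38% and 21.2%.

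The narrower spread of the members was seen in each of 5 equal groups of the pairs ordered by the geometric mean of both scores, a comparison chosen after the data were seen. In the lowest group the SD of the centred log2 ratio was 0.44 in members and 0.51 in peaks with LRH-1. There the lower limit of the lists leaves little room, and at least 2-fold changes were seen at 2.75% and 3.22%. In the third group it was 0.89 and 1.05, with changes at 26.0% and 36.4%. In the fourth group it was 0.80 and 1.06, with changes at 19.3% and 32.9%. In the highest group, where the limit is far away, it was 0.51 and 0.72, with changes at 5.26% of 1786 members and 17.5% of 521 peaks with LRH-1. Peaks with LRH-1 were also wider in all 5 groups, for example 1117 against 1029 bp before hCG and 1107 against 1002 bp after it in the highest. Wider peaks are more likely to overlap a LRH-1 peak by position alone, and the part of width in the difference was not tested.

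**Figure D4:**
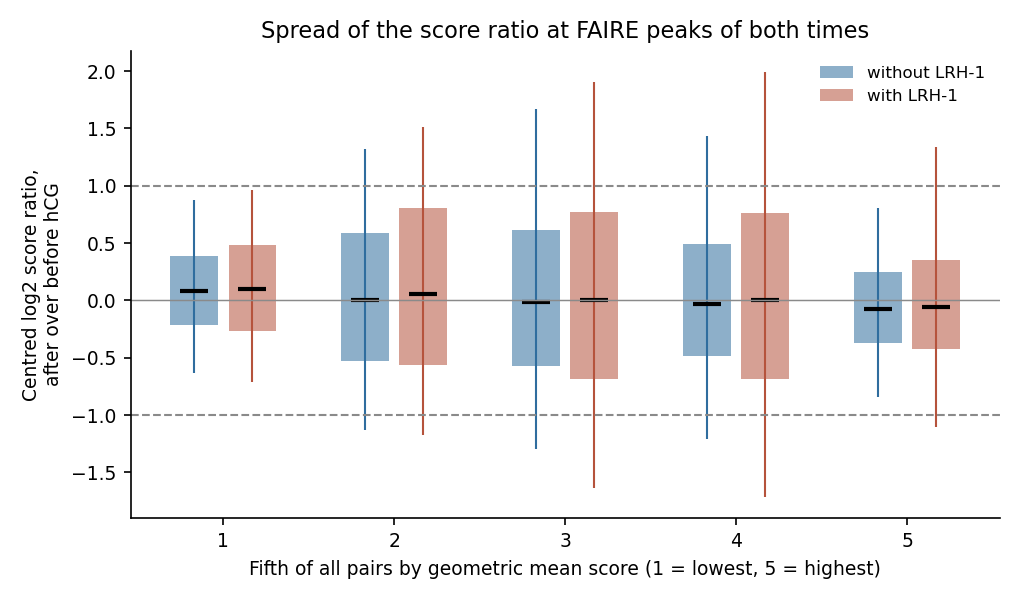
Centred log2 ratio of scores after over before hCG (vertical axis) in 5 equal groups of all FAIRE pairs by geometric mean score (horizontal axis), for peaks without LRH-1 (blue) and with LRH-1 (red); black marks are medians, boxes the quartiles, thin lines the middle 90%, and dashed lines a 2-fold ratio. The blue SD is below the red SD in each group, 0.44 against 0.51 in the lowest and 0.51 against 0.72 in the highest.

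The members were found on all 20 chromosomes in the lists. Their share of the FAIRE peaks after hCG was highest on chromosomes 8 (45.6%, 95% interval 42.6 to 48.6), 7 (45.4%, 42.6 to 48.2) and 11 (44.5%, 42.0 to 47.0). It was lowest on chromosomes 13 (34.7%, 32.0 to 37.5), 12 (34.8%, 31.7 to 37.9) and 14 (35.2%, 32.2 to 38.3). The interval lay above the overall 39.2% on chromosomes 7, 8 and 11 and below it on chromosomes 1, 10, 12, 13, 14 and 18. These intervals were not adjusted for the 20 chromosomes. The shares were not compared at equal score, and no test was made. Chromosome X held 162 members, 42.7% of its FAIRE peaks (37.7 to 47.9). Chromosome 7 also had the highest median scores, 117 before and 102 after hCG. The centred log2 ratio had a median between -0.09 (chromosome 18) and 0.11 (chromosome 6), so no chromosome as a whole moved far from the rest.

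**Figure D5:**
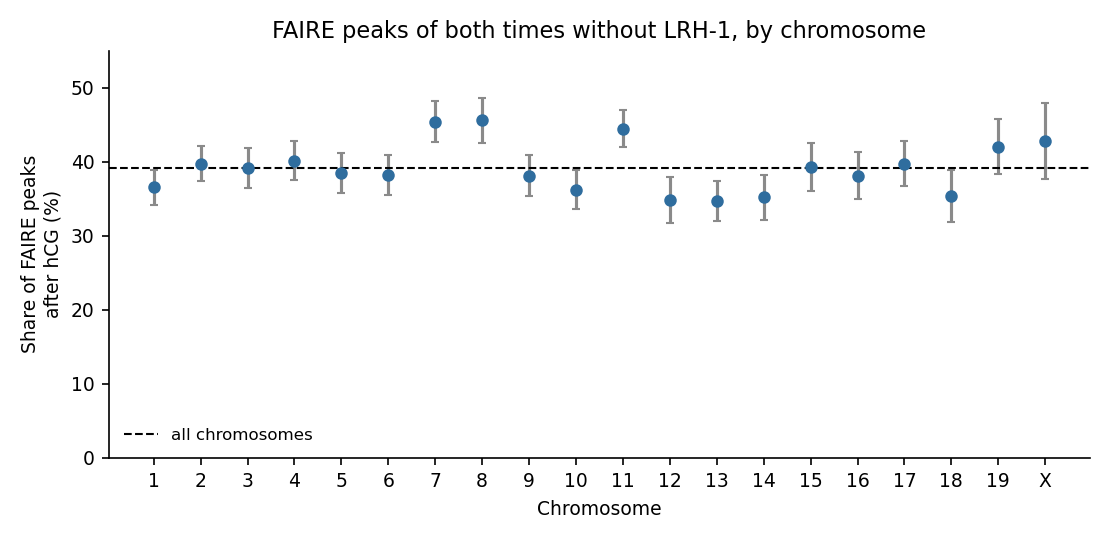
Share of the FAIRE peaks after hCG that were present at both times without LRH-1 (vertical axis, %), per chromosome (horizontal axis); bars are exact 95% intervals and the dashed line is the share over all chromosomes, 39.2%. Chromosomes 7, 8 and 11 lie above the line and chromosomes 12, 13 and 14 below it.

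Members were not spread evenly, and whether they clustered more than FAIRE peaks as a whole was not tested. The median gap between neighbouring members was 103 kb (quartiles 36.0 and 275 kb), and the median window of 1 Mb with any member held 4. The fullest window, on chromosome 7 from 52000001 to 53000000, held 31 members among 42 FAIRE peaks after hCG. Their median scores were 172 before and 181 after hCG, above the medians of all members, and 2 were at least 2-fold higher and 3 lower. In the same window lay 8 gained, 2 lost and 6 persistent LRH-1 peaks, 8 FAIRE peaks seen only after hCG and 14 seen only before it. The next, on chromosome 11 from 69000001 to 70000000, held 26 members among 48 FAIRE peaks after hCG, with median scores of 172 and 151. None of those 26 differed 2-fold in score, while 16 FAIRE peaks of the window were seen only after hCG and 9 only before it. The window on chromosome 17 from 35000001 to 36000000 held 25 members among 41 FAIRE peaks after hCG. Of these members, 4 were at least 2-fold higher, including the region at 35727124 to 35728198 described above, and 1 lower. These windows therefore held FAIRE peaks of both times beside peaks listed at a single time. At least 2-fold differences either way were seen at 14.0% of all members and 16.6% of all pairs. The windows were picked as the fullest, so their small counts are a description only.

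The longest run of members without another FAIRE peak between them began inside that window, close to its end, and reached beyond it, on chromosome 17 from 35997851 to 36180335, so the window and the run can share members. Its 9 members spanned 182 kb, with scores between 77.7 and 603 before hCG, and between 53.3 and 332 after the signal. Of these 9, 1 was at least 2-fold higher and none lower after hCG. The shares were 8.42% and 5.53% of all members, and 9.77% and 6.85% of all pairs. Such runs were rare. Of 6113 runs, 4268 (69.8%) were a single member, and 90 runs of 5 or more held 502 members.

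The surroundings of the members were not free of LRH-1. The median gap to the nearest LRH-1 peak of either time was 44.1 kb, 1607 members (18.0%, 95% interval 17.2 to 18.8) had one within 10 kb and 291 within 1 kb. For FAIRE peaks without LRH-1 that were seen only after hCG, the median was 42.4 kb and 19.9% had a LRH-1 peak within 10 kb. For those seen only before hCG, the values were 53.2 kb and 16.4%. By these measures the members lay between the peaks without LRH-1 seen only after hCG and those seen only before it.

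With the distance to any LRH-1 peak, the score ratio of the members had a similar spread in the nearest and the farthest class. Members within 1 kb of a LRH-1 peak had a median centred log2 ratio of -0.11 (291 members) and those over 100 kb away 0.02 (2490 members), while the SD over members was 0.70 and 0.69. Within 1 kb of a gained LRH-1 peak, 8.50% of 153 members were at least 2-fold higher and 5.88% lower. Between 5 and 10 kb away, 9.58% of 355 members were higher and 9.01% lower (95% interval of the lower share 6.25 to 12.5), and over 100 kb away the shares were 8.02% and 5.38%. The share higher in these 3 classes was below the 20.9% of FAIRE peaks that held a gained LRH-1 peak. Near lost LRH-1 peaks, more members were lower in some classes. Within 1 kb of one, 6.98% of 43 members were higher and 14.0% lower (5.30 to 27.9), with a median centred log2 ratio of -0.15. Between 10 and 50 kb away, 7.31% of 889 members were higher and 8.10% lower (6.39 to 10.1), beside 5.53% of all members. The classes between these, from 1 to 5 and from 5 to 10 kb, had 5.81% and 4.35% lower, so the share did not fall steadily with distance.

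Distances to FAIRE peaks of a single time were classed in the same way. Within 1 kb of a FAIRE peak seen only before hCG, 15.5% of 110 members were at least 2-fold higher after hCG (95% interval 9.27 to 23.6) and 0.909% lower (0.0230 to 4.96). Between 1 and 5 kb away, 11.8% of 432 members were higher and 3.47% lower, and over 100 kb away 8.57% and 5.70% of 2754. Beside FAIRE peaks seen only after hCG, 11.8% of 170 members within 1 kb were higher (7.34 to 17.6) and 4.71% lower. Between 1 and 5 kb away 8.66% of 508 were higher, between 5 and 10 kb away 11.6% of 683 (9.27 to 14.2), and over 100 kb away 7.08% of 2530 (6.11 to 8.14). The lower shares in these classes were 6.89%, 6.59% and 6.17%, beside 5.53% of all members. Near peaks seen only before hCG, the share higher exceeded the 8.42% of all members within 5 kb, but not between 5 and 10 kb (8.21%). Near peaks seen only after hCG, the higher and the lower share both exceeded those of all members in the classes from 1 to 10 kb. The difference between the kinds was not tested. How a peak that was split or joined between times would enter these counts was not tested.

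Over 5 classes of distance, the changes of neighbouring members were close to uncorrelated. The centred log2 ratios of neighbours less than 5 kb apart correlated with r = 0.03 (Spearman's rho 0.01, 300 neighbours), those between 20 and 100 kb apart with r = -0.03 (3049 neighbours), and those over 500 kb apart with r = 0.01 (1249 neighbours). These are correlations across regions of the same lists and carry no test.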

How the data were processed

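FAIRE and LRH-1 ChIP peak lists of granulosa cells and ovarian tissue were used at 2 times. Per the submitters' processing notes, the tools were BWA on mm9 for both assays and, for ChIP, also MACS2 2.1.0 and bedtools. The FAIRE lists name their peaks after MACS and give the authors' score per peak; its scale and the caller's version are not given in the sources used here. In the deposited LRH-1 lists each peak has a score, a fold enrichment ratio and the −log10 of the p-value and q-value. No source used here states whether replicates were pooled or how deep the reads were.

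Members and lists were chosen with earlier results of these data known. Overlaps of at least 1 bp were computed in Python 3.11.15 (numpy 2.4.6, pandas 2.3.3, scipy 1.17.1), checked against bedtools 2.31.1 (8927 members by both) and tested on simulated data. The partner before hCG was the peak with the longest overlap. LRH-1 peaks were gained, lost or persistent by overlap between times. Score ratios were centred on the median of all FAIRE pairs, and a 2-fold ratio counted as a change. Regions were named by fixed rules: the 5 best scores per time, the 5 largest changes each way among 1 to 1 pairs at or above percentile 50 of a list, the 3 steadiest of the best 10%, extremes of width, the fullest windows, the longest run and the edges of the rule. Genes and sequences, which need an mm9 genome, and RNA were not analysed here. The alternatives and their effect are in the closing section.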

Additional observations from a re-analysis of the deposited data

How the results depend on the processing

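Each choice was changed in turn. With an overlap of at least 50% of the shorter peak, a midpoint rule, 1 to 1 pairs or the better-scoring partner, every count stayed within 1.5 times and every median within its exact interval. Excluding regions within 1000 bp of LRH-1 left 37.9% of the FAIRE peaks after hCG as members, and using the better-scoring 50% of the LRH-1 lists gave 43.0%. With FAIRE lists of equal length the share was 40.003%, the median scores 93.2 before and 85.7 after hCG, the median log2 ratio -0.14 and the median width after hCG 907 bp. With FAIRE peaks at or above their list's median, 4185 members remained in number (36.7%), with median scores of 153 and 138, median widths of 985 and 959 bp, and 183 higher (4.37%) and 110 lower (2.63%), beside 5.55% and 3.65% of all pairs. Here fewer peaks entered. Without centring, 771 members were lower. At 1.5-fold, 1684 were higher (18.9%) and 1515 lower (17.0%), beside 20.5% and 18.4% of all pairs, and by a rank change of 25 points 1295 and 1311, as given above. In pairs at or above the median mean score, an alternative chosen after seeing the data, 345 were higher (8.20%) and 260 lower (6.18%), beside 10.0% and 8.04% of all pairs. In every one of these settings the share changed either way was lower in members than in peaks with LRH-1, at 7.001% against 15.7% for FAIRE peaks at or above their list's median. The named regions had 190 values under the alternatives, not counting ratios without centring. Of these, 2 moved by more than 1 SD over members, both of the region on chromosome 17 starting at 17761294. That region and the one on chromosome 1 starting at 95238109 went below 2-fold under 2 of these alternatives each. Of the regions at least 2-fold changed, 0 values took the opposite sign. The 5 values that did belong to the 3 steadiest regions, whose centred log2 ratios were within 0.00079 of 0. Without centring, the sign also changed for the regions starting at 134352060 on chromosome 7 (log2 ratio -0.12) and 97604351 on chromosome 8 (-0.11). It changed as well for those at 145036378 on chromosome 4 (-0.04) and 116850546 on chromosome 12 (-0.11). The regions at 17761294 and 95238109 were then 1.92-fold and 1.81-fold higher, below 2-fold. No paired analysis was possible because each assay has 1 list per time. The lower score limit and the unknown depth restrict what can be said of weak regions.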
